A study of Mus musculus with 12 samples.

Results

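The p53 family of the mouse has 3 genes, Trp53, Trp63 and Trp73, which encode the transcription factors p53, p63 and p73. They were found by symbol among the 53647 gene IDs of the deposited table, as ENSMUSG00000059552, ENSMUSG00000022510 and ENSMUSG00000029026. All 3 were present once. RNA was taken from mouse embryos at embryonic day 9.5 and sequenced after selection of polyadenylated transcripts. The embryos are labelled p53 -/- or p53 +/+, and each label was sampled untreated, at 1 h and at 3 h after X-rays of 30 Gy, given to the pregnant mouse at a rate of 5 Gy a minute. Every group of the 6 has 2 libraries, numbered 1 and 2, which makes 12. The sources used here do not give the knockout allele, the strain or how many embryos went into a library. The values are TPM, transcript abundance per transcript length scaled to a fixed sum in each library, so genes can be compared within a library, while read depth is unknown and counting error cannot be stated.

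All 3 proteins bind the same kind of DNA element as tetramers, and each gene is read from more than one promoter. p53 is kept low by the ubiquitin ligase MDM2 and is stabilised after DNA breaks, mainly through its protein, when it turns on genes of cell cycle arrest and cell death. p63 is best known for the surface ectoderm, the epidermis and the apical ridge of the limb bud, and p73 for multiciliated cells and for Cajal-Retzius neurons of the cortex. Trp63 and Trp73 each give long forms with an activation domain (TA) and short forms without it (deltaN), and deltaN forms of p73 restrain p53. Gene-level TPM sums these forms, so they cannot be told apart here.

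The embryonic material was checked by marker genes. Both 3 h libraries labelled knockout lay apart in these markers. Neural progenitor markers summed to 122.5 and 125.05 TPM there, against 234 to 319 TPM in the other 10 libraries, and 4 of the 6 fell at 3 h against untreated under the label knockout. Primitive erythroid markers summed to 13364 and 11083 TPM there, against 1934 to 10570 TPM in the other 10, and 4 of the 6 rose in that comparison, in which 6.25% of all tested genes were called higher and 5.87% lower (limma, adjusted p under 0.05, over genes that reached 1 TPM in 2 or more libraries). Cardiac muscle markers summed to 2683 and 2422 TPM there, against 902 to 1920 TPM, with 0 of 6 called, and somite and presomitic mesoderm markers to 60.2 and 48.6 TPM, against 70.8 to 118 TPM. Markers of visceral endoderm summed to 22.9 to 451 TPM over the 12 libraries, and those of trophoblast to 17.5 to 60.3 TPM. Both 1 h libraries numbered 2 stood apart, with 18.4% (labelled knockout) and 18.3% (labelled wild type) of their TPM in ribosomal protein genes, against 10.5% to 12.53% in the other 10. Posterior Hox genes, which rise with stage, had a lower mean log2(TPM + 1) in untreated libraries labelled knockout, at 1.18 and 1.55. Untreated libraries labelled wild type stood at 3.01 and 2.77. Under the label knockout the Hox mean was 3.34 and 3.68 at 1 h, and 2.08 and 2.09 at 3 h. Irradiated and untreated libraries of that label may thus differ in stage too, and its part in their differences was not tested. The labels do not say whether libraries within a group are from separate embryos, and p-values then measure the spread between these libraries, which may be technical.

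Trp53 was by far the most abundant of the family. It made up 91.8% to 98.5% of the summed TPM of the 3 genes in every library. Its level stood at or above that of 84.5% to 96.3% of the 15535 genes tested, the genes that reached 1 TPM in 2 or more libraries. Trp63 stood lower, at 3.94 to 5.96 TPM over the 12 libraries, and Trp73 lower still, at 0 to 3.65 TPM with a median of 0.190 TPM. Trp53 TPM was between 11.4 and 67.3 times that of Trp63.

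Trp53 transcript went against the genotype labels. Without treatment it was at 265 TPM in library 1 and 79.1 TPM in library 2 under the label knockout, and at 114 and 211 TPM under the label wild type. At 1 h it was at 250.1 and 209.5 TPM under the label knockout and at 114 and 66.8 TPM under the label wild type. At 3 h it was at 242 and 219.8 TPM under the label knockout and at 93.7 and 68.0 TPM under the label wild type. The values therefore fell into a high range, 209.5 to 265 TPM, and a low range, 66.8 to 114 TPM, with no library between them. The high range held 5 of the 6 libraries labelled knockout and 1 of the 6 labelled wild type. The 2 libraries that lay apart from their label were both untreated and both numbered 2. Labels or columns may be exchanged, in part or throughout, which these values cannot settle. Every direction between the labels given here therefore holds for the labels as deposited.

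**Figure D1:**
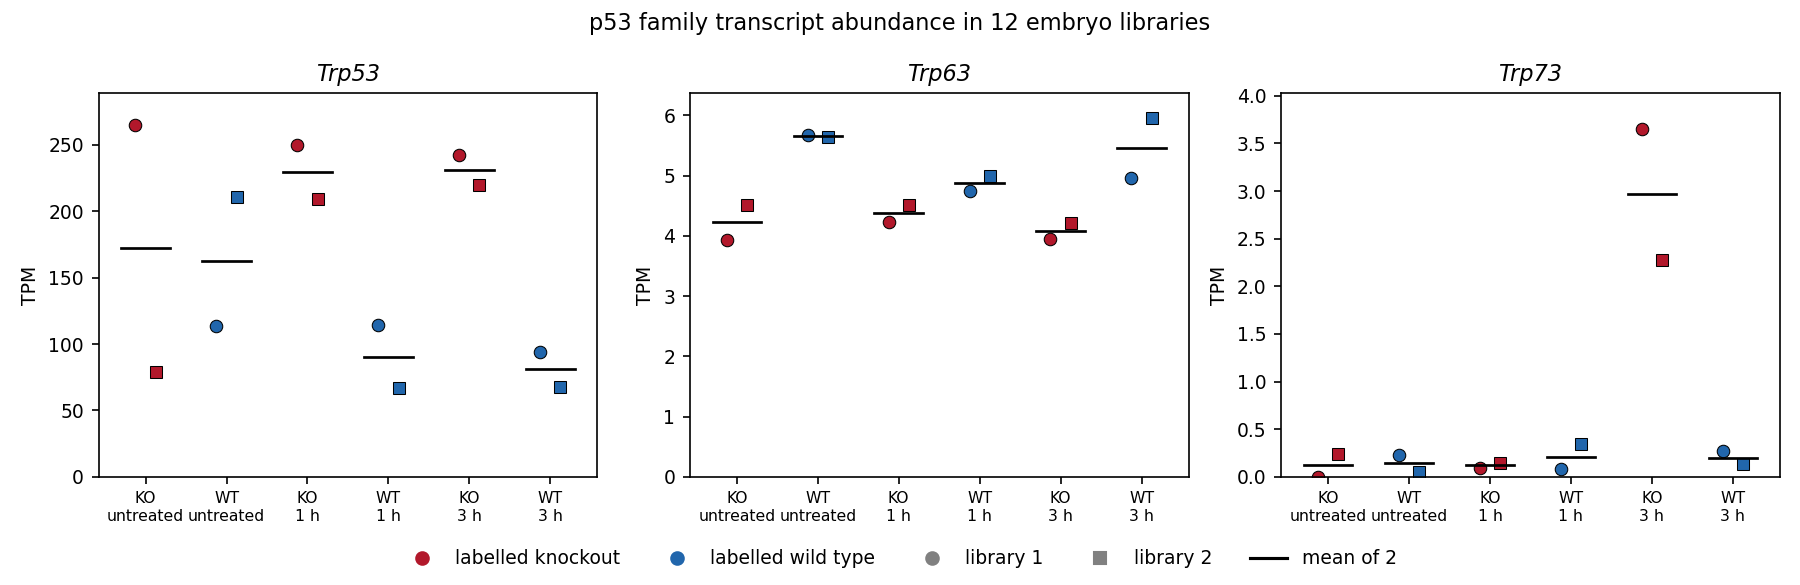
TPM of Trp53, Trp63 and Trp73 in each library (points, circle for library 1 and square for library 2), with the mean of the 2 libraries of a group as a line and the groups ordered by time, label knockout (KO) left of label wild type (WT). Trp53 is high in 5 libraries labelled knockout and in 1 untreated library labelled wild type, Trp63 is below 4.53 TPM in all libraries labelled knockout and at 4.75 TPM or above in all labelled wild type, and Trp73 passes 1 TPM only in the 3 h libraries labelled knockout.

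The order of the group means of Trp53 was led by the label knockout at 3 h, at 231 ± 15.8 TPM, and at 1 h, at 229.8 ± 28.7 TPM (SD, n = 2 for every group). The untreated groups followed, at 172 ± 132 TPM for the label knockout and 163 ± 68.8 TPM for the label wild type. The label wild type at 1 h, at 90.6 ± 33.6 TPM, and at 3 h, at 80.9 ± 18.2 TPM, came last. The ranges of every 2 neighbours in this order overlapped, so none of them differed beyond their spread.

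Within pairs of libraries of equal time and number, the library labelled knockout held more Trp53 transcript in 5 of 6 pairs. Its TPM was 2.19 and 3.14 times that of the library labelled wild type at 1 h, and 2.58 and 3.23 times at 3 h. In untreated pairs the ratio was 2.33 for number 1 and 0.375 for number 2. An exact permutation of the labels within each time, two-sided, gave p = 0.0741 for a mean difference of 0.93 on the log2(TPM + 1) scale. With labels exchanged only within pairs of equal time and number the same difference had exact p = 0.156, and with size factors exact p = 0.0648 for a difference of 1.02. Only on the TPM scale, with a mean difference of 99.7 TPM, was it past 0.05 among these 4 settings (exact permutation p = 0.0463, two-sided). The labels were kept as given, and a gene-level value does not show whether a deleted part of Trp53 is missing, so it checks the genotype only as far as an allele lowers the whole transcript.

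Tests across all genes did not call Trp53 in any comparison of the main fit. limma on log2(TPM + 1) gave a difference of label knockout over label wild type of -0.10 (SE 0.535, Benjamini-Hochberg adjusted p = 1) in untreated libraries. The difference was 1.38 (SE 0.535, limma adjusted p = 1) at 1 h and 1.52 (SE 0.535, limma adjusted p = 0.118) at 3 h, with 95% intervals that ran from 0.16 to 2.60 and from 0.30 to 2.74. Over the mean of the 3 times it was 0.93 (SE 0.309, limma adjusted p = 0.212). The share of all tested genes called was 0.0193% in untreated libraries, 0.0386% at 1 h, 10.3% at 3 h and 2.26% over the mean of the times. Without both untreated libraries numbered 2, a setting chosen after seeing the data, the difference over the mean of the times was 1.37. Untreated libraries do not enter the 3 h difference of 1.52, so leaving them out changes only the spread it is set against. Leaving out 1 library at a time, the 3 h difference ran from 1.29 to 1.75. With only the groups compared, the 3 h difference of 1.52 was called, as given below. The lack of a call at 3 h in the main fit therefore depended on the setting.

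Irradiation went with no called change of Trp53 under either label, in comparisons where 0.103% (1 h, knockout label), 12.1% (3 h, knockout label), 0% (1 h, wild-type label) and 0% (3 h, wild-type label) of all tested genes were called. In knockout-labelled libraries the difference from untreated was 0.65 (SE 0.535) at 1 h and 0.67 (SE 0.535) at 3 h. In the libraries labelled wild type it was -0.82 (SE 0.535) at 1 h and -0.95 (SE 0.535) at 3 h. The difference of the responses between the labels was 1.48 (SE 0.757) at 1 h and 1.62 (SE 0.757, limma adjusted p = 0.363) at 3 h, where 0.00644% and 3.45% of all tested genes were called. Without both untreated libraries numbered 2 the response under the label knockout became -0.21 at 1 h and -0.20 at 3 h, so its direction rested on the 79.1 TPM of 1 library. Under the label wild type the size rested on the 211 TPM of the untreated library 2, without which the difference was -0.38 at 1 h and -0.51 at 3 h. The difference of the responses became 0.61 at 1 h and 0.75 at 3 h without the untreated library 2 labelled knockout, and 2.34 and 2.48 without library 1 of that group.

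The processed pseudogene Trp53-ps, a copy of Trp53 with closely similar sequence, followed it library by library. Trp53-ps was at 1.44 TPM in the untreated library labelled knockout with 265 TPM of Trp53, at 1.00 and 0.0800 TPM in the 1 h libraries labelled knockout, and at 0.730 and 0.530 TPM in the 3 h libraries labelled knockout. It was at 0.310 TPM in the untreated library 2 labelled wild type and listed at 0 in the other 6 libraries. The 6 libraries with a value were those of the high Trp53 range, and in them the order of Trp53-ps was the order of Trp53. Reads of a gene and a near-identical copy cannot be told apart with certainty, so values of Trp53-ps may be reads of Trp53, and the sources used here do not say how the counting divided them.

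**Figure D2:**
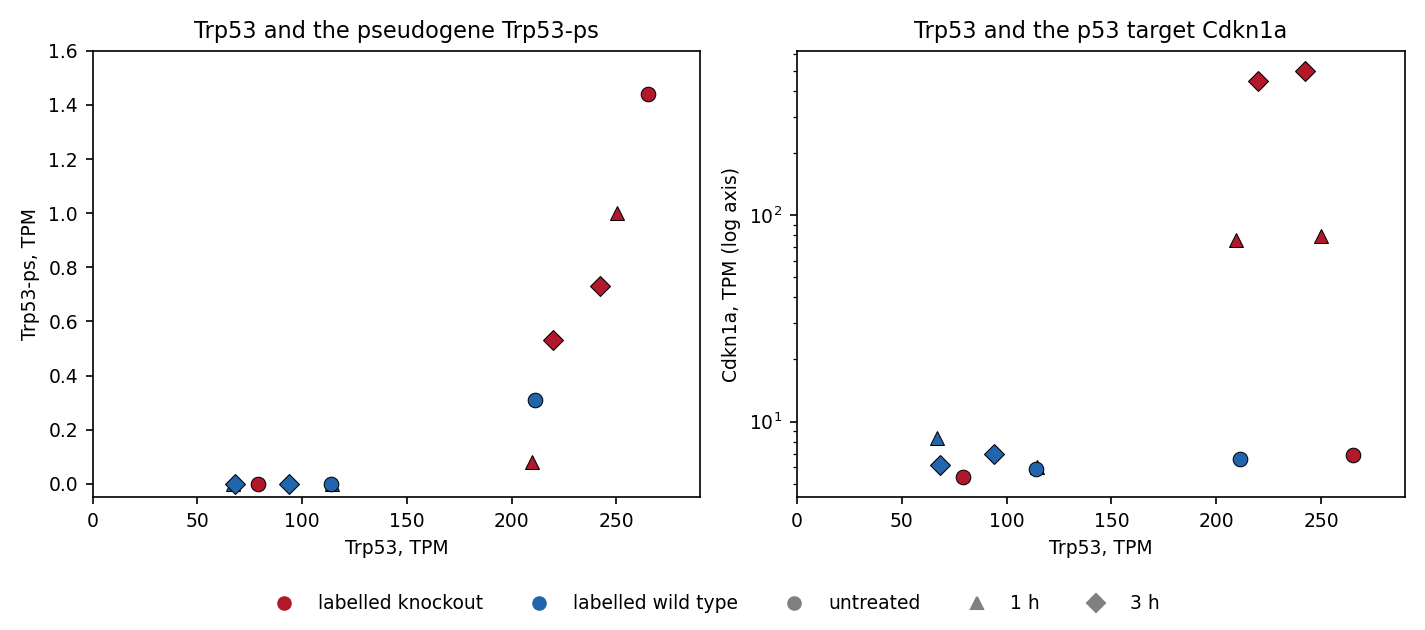
TPM of Trp53 in each of the 12 libraries against TPM of Trp53-ps (left, linear axes) and of Cdkn1a (right, log axis), coloured by label and shaped by time. Trp53-ps is above 0 only where Trp53 is at 209.5 TPM or more, while Cdkn1a is high only in irradiated libraries labelled knockout and is 6.60 and 6.88 TPM in the 2 untreated libraries with high Trp53.

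Targets of p53 gave a second readout of the same libraries. Cdkn1a, which encodes the cell cycle inhibitor p21, under the label knockout stood at 79.4 and 76.2 TPM 1 h after irradiation and at 499 and 444 TPM after 3 h. In the other 8 libraries, untreated or labelled wild type, it was at 5.38 to 8.36 TPM. Of 25 p53 target genes 21 rose and 0 fell at 3 h against untreated in knockout-labelled libraries, with a median difference of 2.94 against -0.12 over all tested genes, and 6.25% of all tested genes were called higher (limma adjusted p under 0.05). The 25 were chosen with earlier results of these data known, so the count is a description. Gdf15, a member of the list, passed the filter on low values only through those 3 h libraries, at 1.13 and 1.66 TPM. In the libraries labelled wild type 0 of the 25 were called at 3 h, with a median of -0.01. There 0 of all tested genes were called by limma (0%), 524 had an unadjusted p under 0.05, and 24 passed with the replicate number as a block. The mean log2(TPM + 1) of the 25 targets was 3.11 and 3.11 in untreated libraries labelled knockout, beside 265 and 79.1 TPM of Trp53. In untreated libraries labelled wild type it was 2.98 beside 114 TPM of Trp53 and 3.39 beside 211 TPM. The target mean was thus equal within the first pair and higher with more Trp53 in the second. Whether untreated targets follow Trp53 was not tested. Under the label knockout Pmaip1, which encodes the death protein NOXA, was at 238 and 217 TPM at 3 h, against 1.88 and 1.23 TPM untreated. Tap1, a peptide transporter, was at 44.4 and 50.9 TPM at 3 h, against 0.440 and 0.340 TPM untreated, while its 1.00 and 1.03 TPM at 1 h were not called (limma adjusted p = 0.419). At 1 h against untreated under the label knockout 4 of the 25 were called higher and 0 lower. Beside them 0.0837% of all tested genes were called higher and 0.0193% lower. Cdkn1a was 1 of the 4 (3.47, SE 0.187, limma adjusted p = 0.000498). In the same comparison 6 of 11 posterior Hox genes were called higher and 0 lower, and the part of stage was not tested. A rise of p53 targets under the label p53 -/-, with none called under the label p53 +/+, runs opposite to what the labels name. The 3 h response differed between the labels, upward under the label knockout, in 20 of the 25, beside 2.59% of all tested genes (limma interaction, adjusted p under 0.05). It came in the same 3 h libraries in which neural progenitor markers were low and erythroid and cardiac markers high, and the part of these in the rise was not tested.

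Trp63 was lower under the label knockout in every pair, by a small amount. In the untreated libraries it was at 3.94 and 4.51 TPM under the label knockout and at 5.67 and 5.64 TPM under the label wild type. At 1 h it was at 4.23 and 4.52 TPM under the label knockout and at 4.75 and 5.00 TPM under the label wild type. At 3 h it was at 3.95 and 4.21 TPM under the label knockout and at 4.96 and 5.96 TPM under the label wild type. The highest of the 6 libraries labelled knockout, 4.52 TPM, was below the lowest of the 6 labelled wild type, 4.75 TPM. Among the 15535 tested genes, 14 were lower in all libraries labelled knockout without overlap (0.0901%). These shares are on TPM without size factors. At single times the share lower without overlap was 9.11% untreated, 11% at 1 h and 36.2% at 3 h. The share higher without overlap was 8.8%, 4.54% and 18.1%.

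The mean over the 6 libraries was 4.23 ± 0.255 TPM for the label knockout and 5.33 ± 0.488 TPM for the label wild type (SD, n = 6 each). The exact permutation test within times, two-sided, gave p = 0.00926 for a mean log2(TPM + 1) difference of -0.27, the smallest p this design allows. With labels exchanged only within pairs of equal time and number it gave exact p = 0.0312, the smallest that such exchanges allow. limma across all genes did not call the difference over the mean of the times (-0.27, SE 0.0924, adjusted p = 0.220), where the median of all tested genes was -0.07. With the replicate number as a block it passed (limma adjusted p = 0.0487), and 10% of all tested genes passed with that block. With median-of-ratios size factors the labels overlapped, at 4.13 to 4.74 under the label knockout and 4.63 to 5.73 under the label wild type in scaled TPM, and the difference was -0.20 (exact permutation p = 0.0185).

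At single times the difference of Trp63 between the labels was -0.35 (SE 0.160) in untreated libraries, -0.13 (SE 0.160) at 1 h and -0.34 (SE 0.160, limma adjusted p = 0.236) at 3 h, where the median of all genes was -0.16. None was called. The posterior Hox genes had a mean log2(TPM + 1) of 3.34 and 3.68 under the label knockout, against 3.55 and 3.73 under the label wild type at 1 h, and of 2.08 and 2.09 under the label knockout, against 2.81 and 3.08 under the label wild type, at 3 h. Their part in the difference of Trp63 was not tested. In bulk samples fewer cells of a type and less RNA per cell cannot be told apart. Markers of surface ectoderm summed to 215 to 384 TPM under the label knockout and to 195 to 324 TPM under the label wild type, so their ranges overlapped. All 12 of them passed the filter on low values.

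Irradiation went with no called change of Trp63. The share of all tested genes called was 0.103% at 1 h and 12.1% at 3 h under the label knockout. Under the label wild type it was 0% at both times, so the lack of a call there says nothing particular about Trp63. Under the label knockout the difference from untreated was 0.04 (SE 0.160, limma adjusted p = 0.967) at 1 h and -0.04 (SE 0.160, limma adjusted p = 0.939) at 3 h, with a 95% interval from -0.40 to 0.33 at 3 h. Under the label wild type it was -0.18 (SE 0.160) at 1 h and -0.05 (SE 0.160) at 3 h. The order of the group means ran from 5.66 ± 0.0212 TPM (untreated, label wild type) to 4.08 ± 0.184 TPM (3 h, label knockout). The step between 4.88 ± 0.177 TPM (1 h, label wild type) and 4.38 ± 0.205 TPM (1 h, label knockout) divided the labels, and the ranges of all other neighbours in the order overlapped.

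At 3 h against untreated in knockout-labelled libraries Trp63 itself was not called. There 5 of 8 genes known as targets of p63 in epithelia rose and 0 fell, with a median difference of 1.88. Beside them 6.25% of all tested genes were called higher. The 8 were chosen with earlier results of these data known, so the count is a description. Krt5, a keratin of basal epithelial cells, was at 11.3 and 10.2 TPM at 3 h, against 1.99 and 1.17 TPM untreated (difference 2.21, SE 0.192, limma adjusted p = 0.000212). Jag2, a Notch ligand, was at 25.8 and 31.8 TPM at 3 h, against 6.09 and 5.53 TPM untreated (2.12, SE 0.204, limma adjusted p = 0.000339). Krt15, another basal keratin, was at 6.11 and 5.31 TPM at 3 h, against 0.530 and 1.11 TPM untreated. Perp, a desmosome gene that is a target of both p53 and p63 and is counted in both lists, also rose. Fras1, Dlx3 and Krt14 were not called. In the libraries labelled wild type 0 of the 8 were called at 1 h or 3 h, as were 0 of all tested genes (0%), so that count says nothing particular about the 8. The low neural progenitor and high erythroid and cardiac markers stood in the same 3 h libraries, and their part in these changes was not tested.

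Of the 12 surface ectoderm markers, 2 rose and 2 fell in the same comparison, in which 5.87% of all tested genes were called lower. Grhl3, a factor of epidermal differentiation, was at 12.8 and 16.7 TPM at 3 h, against 2.03 and 2.08 TPM untreated in knockout-labelled libraries (2.36, SE 0.174, limma adjusted p = 8.99e-05). The other riser was Krt5. Esrp1, an epithelial splicing regulator, fell to 5.83 and 6.96 TPM at 3 h, against 14.6 and 12.3 TPM untreated (-0.97, SE 0.190, limma adjusted p = 0.0126). Krt18, a simple-epithelium keratin and the most abundant marker of the list, was at 64.3 and 121 TPM at 3 h, against 82.0 and 103 TPM untreated, and was not called. The list of the apical ectodermal ridge, where p63 is also made, had 2 risers and 3 fallers of 7. Sp6 was at 23.2 and 24.1 TPM at 3 h, against 6.21 and 6.50 TPM untreated, while Dlx5 fell to 5.57 and 3.16 TPM, against 22.2 and 16.3 TPM untreated. Sp8 fell to 1.58 and 2.7 TPM, against 7.87 and 13.1 TPM untreated. All are transcription factors of the ridge. Fgf8, the growth factor it secretes and the most abundant of the list, was at 12.7 and 6.86 TPM at 3 h, against 29.7 and 21.4 TPM untreated, and was not called.

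Trp73 was near 0 in 10 libraries and higher in the 3 h libraries labelled knockout. There it was at 3.65 and 2.28 TPM, and in the 3 h libraries labelled wild type at 0.270 and 0.130 TPM. At 1 h it was at 0.0900 and 0.150 TPM under the label knockout and at 0.0800 and 0.340 TPM under the label wild type. Untreated libraries held 0 and 0.240 TPM under the label knockout and 0.230 and 0.05 TPM under the label wild type. Both 3 h libraries labelled knockout lay above the other 10, which overlapped with each other, and 11% of all tested genes had that pattern. Trp73 passed the filter on low values only through these 2 libraries, so it could enter the test only by differing, and the adjusted p-values of that fit are given as a description.

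The 3 h difference from untreated under the label knockout was 1.81 on the log2(TPM + 1) scale (SE 0.235, limma adjusted p = 0.00165), a scale that understates changes of a gene this low. The difference of label knockout over label wild type at 3 h was 1.70 (SE 0.235, limma adjusted p = 0.00264). In those comparisons 6.25% and 5.25% of all tested genes were called higher. The 3 h response differed between the labels by 1.73 (SE 0.333, limma adjusted p = 0.0273), where 2.59% of all tested genes were called higher. That last call was lost without any one of the 6 untreated or 3 h libraries whose removal left Trp73 in the test (limma adjusted p from 0.0565 to 0.114). Without either 3 h library labelled knockout Trp73 no longer passed the filter, so its dependence on each of them was not tested. With no filter on low values, where its entry did not depend on its level, Trp73 had the same differences at limma adjusted p = 0.00135 (3 h against untreated, label knockout), 0.00201 (between the labels at 3 h) and 0.0198 (difference of the 3 h responses). With a pseudocount of 0.1 the difference of the 3 h responses was 3.63 and was not called (limma adjusted p = 0.170). At 1 h the difference from untreated in the main fit was 0.01 (SE 0.235) under the label knockout. Under the label wild type it was 0.08 (SE 0.235), and neither was called. In these comparisons 0.103% and 0% of all tested genes were called. The exact permutation of the labels over all times was not past 0.05 for Trp73 (p = 0.222, two-sided).

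**Figure D3:**
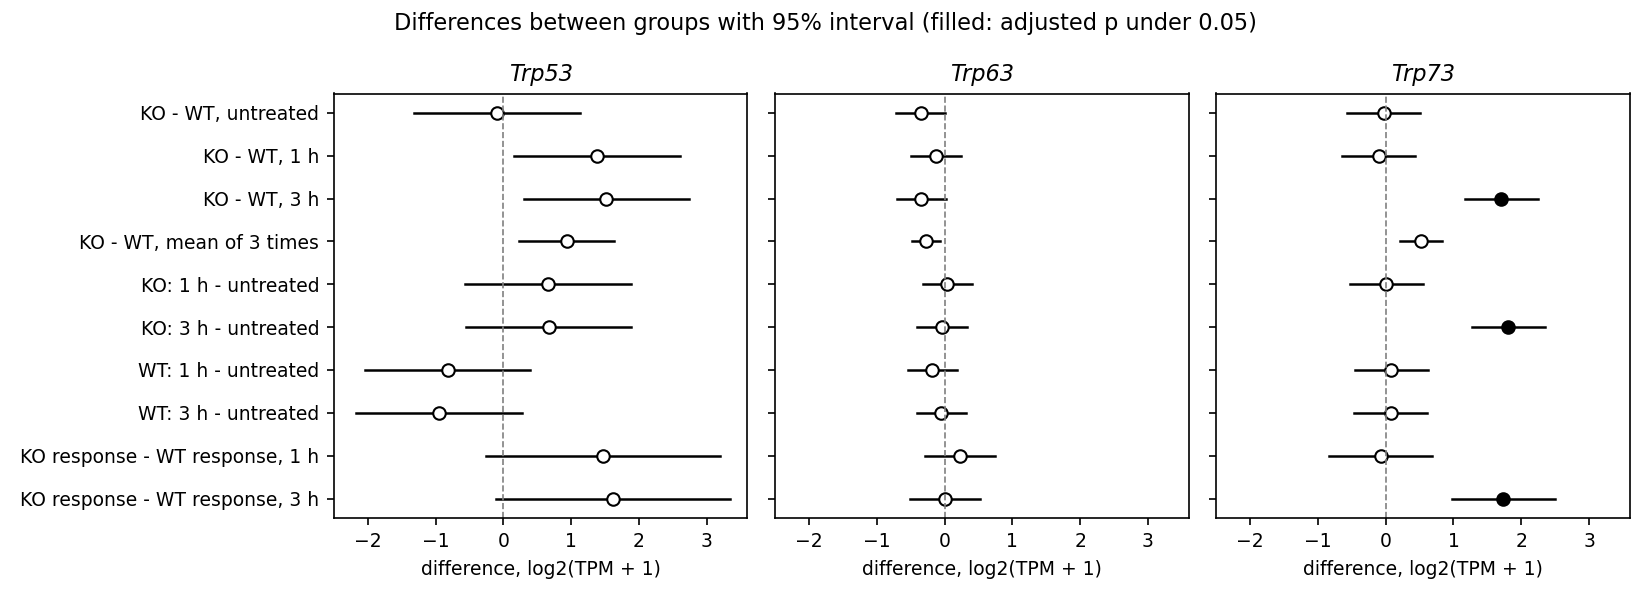
Differences on the log2(TPM + 1) scale for each family member in 10 comparisons, with the 95% interval of limma as a line and a filled point where the adjusted p is under 0.05 (KO and WT are the genotype labels). Only Trp73 has filled points, at 1.70, 1.81 and 1.73, in the comparisons that hold the 3 h libraries labelled knockout other than the mean over the 3 times, and it passed the filter on low values only through those libraries.

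Trp73 has an outer promoter, from which TA forms start, and an internal promoter, from which deltaN forms start. Both windows, of 250 bases before to 50 bases after each start, are shown because Trp73 was higher in the 3 h libraries labelled knockout and p53 is known to bind the internal promoter in human cells. They come from RefSeq on GRCm38.p6, whose build differs from the GRCm39 named for the deposited files, and both lie on the minus strand of chromosome 4. Capitals mark a p53 site, searched by that name as 2 adjoining units of 10 bases on the consensus for p53, with at most 1 mismatch in each unit outside its C and G core. The consensus is palindromic, so both strands are covered.
Trp73 internal start, chr4:154097124-154097423: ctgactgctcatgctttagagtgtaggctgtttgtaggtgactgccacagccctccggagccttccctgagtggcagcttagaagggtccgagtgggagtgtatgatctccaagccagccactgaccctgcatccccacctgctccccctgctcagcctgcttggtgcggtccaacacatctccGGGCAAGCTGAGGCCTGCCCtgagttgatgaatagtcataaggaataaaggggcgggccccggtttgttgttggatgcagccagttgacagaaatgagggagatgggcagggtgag
Trp73 outer start, chr4:154139826-154140125: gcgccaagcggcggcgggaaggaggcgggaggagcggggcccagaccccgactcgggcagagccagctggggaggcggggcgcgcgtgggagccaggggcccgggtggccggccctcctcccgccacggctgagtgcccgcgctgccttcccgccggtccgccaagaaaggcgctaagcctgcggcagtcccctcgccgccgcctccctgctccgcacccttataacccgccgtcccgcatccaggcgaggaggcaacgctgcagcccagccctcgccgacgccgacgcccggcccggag
The internal window held 1 match, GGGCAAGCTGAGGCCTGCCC, with 1 mismatch in each unit, which begins 66 bases before the start. The outer window held 0, and so did the window of Trp53 on chromosome 11. Of 32851 such mouse windows in the RefSeq table, 67 held a match (0.204%). The rule was written after the internal Trp73 window had been read, so this share does not test the match in that window. A match is a description of letters, and the TPM of Trp73 does not show which start was used.

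Markers of cells that make p73 were examined beside it. Foxj1, the master regulator of motile cilia, was at 3.96 and 3.34 TPM in the 3 h libraries labelled knockout and at 1.56 and 1.71 TPM in the untreated ones (0.82, SE 0.215, limma adjusted p = 0.0416). It was at 3.28 and 1.95 TPM in the 3 h libraries labelled wild type and was not called between the labels at 3 h. Of 8 genes of the multiciliated cell program 5 passed the filter, of which 1 rose and 1 fell at 3 h under the label knockout, beside 6.25% of all tested genes called higher and 5.87% lower, and Mcidas, which starts that program, was at 0.0700 TPM or less in every library. Myb was the one that fell, to 1.00 and 0.660 TPM at 3 h, against 2.59 and 3.29 TPM untreated. Traf3ip1, a cilium gene and the most abundant of the program, was at 9.82 and 10.2 TPM at 3 h, against 12.0 and 10.4 TPM untreated. Among markers of Cajal-Retzius cells and early neurons 0 of 9 tested rose and 1 fell, beside the same shares. That was Lhx5, a transcription factor, which fell to 1.59 and 1.13 TPM at 3 h, against 6.09 and 6.55 TPM untreated (-1.64, SE 0.220, limma adjusted p = 0.00188). Tubb3, a neuronal tubulin and the most abundant of the list, was at 31.4 and 27.0 TPM at 3 h, against 32.3 and 59.4 TPM untreated. Reln, the secreted signal of Cajal-Retzius cells, chosen after its values were seen, was at 3.61 and 6.28 TPM in the 3 h libraries labelled knockout and at 2.72 and 5.55 TPM in the untreated ones. Summed markers ran from 24.6 to 35.5 TPM (multiciliated) and from 54.6 to 150 TPM (Cajal-Retzius) under the label knockout, and from 31.1 to 36.6 TPM and 95.8 to 190 TPM under the label wild type, and their part in the change of Trp73 was not tested, nor was that of the neural progenitor, erythroid and cardiac markers that lay apart in the same 3 h libraries.

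Each of Trp53 and Trp73 has a neighbour named for it, and both neighbours rose at 3 h against untreated under the label knockout. In that comparison 6.25% of all tested genes were called higher and 5.87% lower. A link between neighbours and members was not tested. Wrap53, which lies next to Trp53 on the opposite strand and encodes a protein of telomerase assembly, was at 44.2 and 55.0 TPM in the 3 h libraries labelled knockout and at 22.9 and 27.1 TPM in the untreated ones (0.96, SE 0.201, limma adjusted p = 0.0173). Wrap53 stayed between 21.5 and 30.3 TPM in the other 10 libraries. Wrap73, which lies next to Trp73 and encodes a protein of the centrosome, was at 31.2 and 31.0 TPM in the 3 h libraries labelled knockout and at 7.70 and 11.2 TPM in the untreated ones (1.64, SE 0.279, limma adjusted p = 0.00642). It was at 9.26 and 9.44 TPM in the 3 h libraries labelled wild type. Since the strand setting is unstated, reads of Trp53 and Wrap53 where they overlap cannot be told apart. The antisense gene Trp73os was at 0.0200 TPM or less in every library. Efnb3, an ephrin gene on the far side of Wrap53, fell to 16.6 and 22.0 TPM in the 3 h libraries labelled knockout, against 32.4 and 41.4 TPM in the untreated ones (-0.90, SE 0.246, limma adjusted p = 0.0476). Atp1b2 and Sat2 beside Trp53, and Lrrc47, Smim1, Tprgl and Megf6 beside Trp73, were not called in this comparison. Of the neighbours of Trp63, P3h2 and Cldn1 were tested and neither was called at 3 h under the label knockout.

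Genes that act on p53 and its relatives gave 3 risers of 16 at 3 h under the label knockout and 0 fallers, with a median difference of -0.35 beside -0.12 over all tested genes, of which 6.25% were called higher and 5.87% lower. Mdm2, the ligase that degrades p53, was at 293.5 and 306 TPM at 3 h, against 34.9 and 33.1 TPM untreated (3.10, SE 0.151, limma adjusted p = 2.24e-05). Ppm1d, the phosphatase that reverses damage signalling, was at 63.4 and 64.0 TPM at 3 h, against 23.3 and 23.8 TPM untreated (1.40, SE 0.122, limma adjusted p = 0.000211). Chek2, a checkpoint kinase that phosphorylates p53, was at 43.1 and 42.9 TPM at 3 h, against 19.97 and 18.8 TPM untreated (1.11, SE 0.148, limma adjusted p = 0.00186). Atm and Atr, the kinases that sense breaks and stalled forks, were not called. With the replicate number as a block 10 of the 16 passed in this comparison, as did 29.2% of all tested genes.

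Among 10 partners shared by the family, 2 rose at 3 h under the label knockout and 0 fell, beside 6.25% and 5.87% of all tested genes. Ppp1r13l, which encodes the inhibitor iASPP, was at 23.7 and 27.1 TPM at 3 h, against 16.2 and 11.8 TPM untreated (0.82, SE 0.205, limma adjusted p = 0.0338). In the 3 h libraries labelled wild type Ppp1r13l was at 21.1 and 19.0 TPM, and it was not called between the labels. Ppp1r13b, which encodes the activator ASPP1, was at 13.2 and 11.3 TPM at 3 h, against 7.87 and 6.64 TPM untreated (0.68, SE 0.176, limma adjusted p = 0.0380). Yap1, a partner of p73, was at 76.7 and 102 TPM at 3 h, against 131 and 145 TPM untreated (-0.64, SE 0.201, limma adjusted p = 0.0775). With the block 8 of the 10 passed, as did 29.2% of all tested genes. Under the label wild type 0 of the 26 regulators and partners were called at 1 h or at 3 h, as were 0% of all tested genes.

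**Figure D4:**
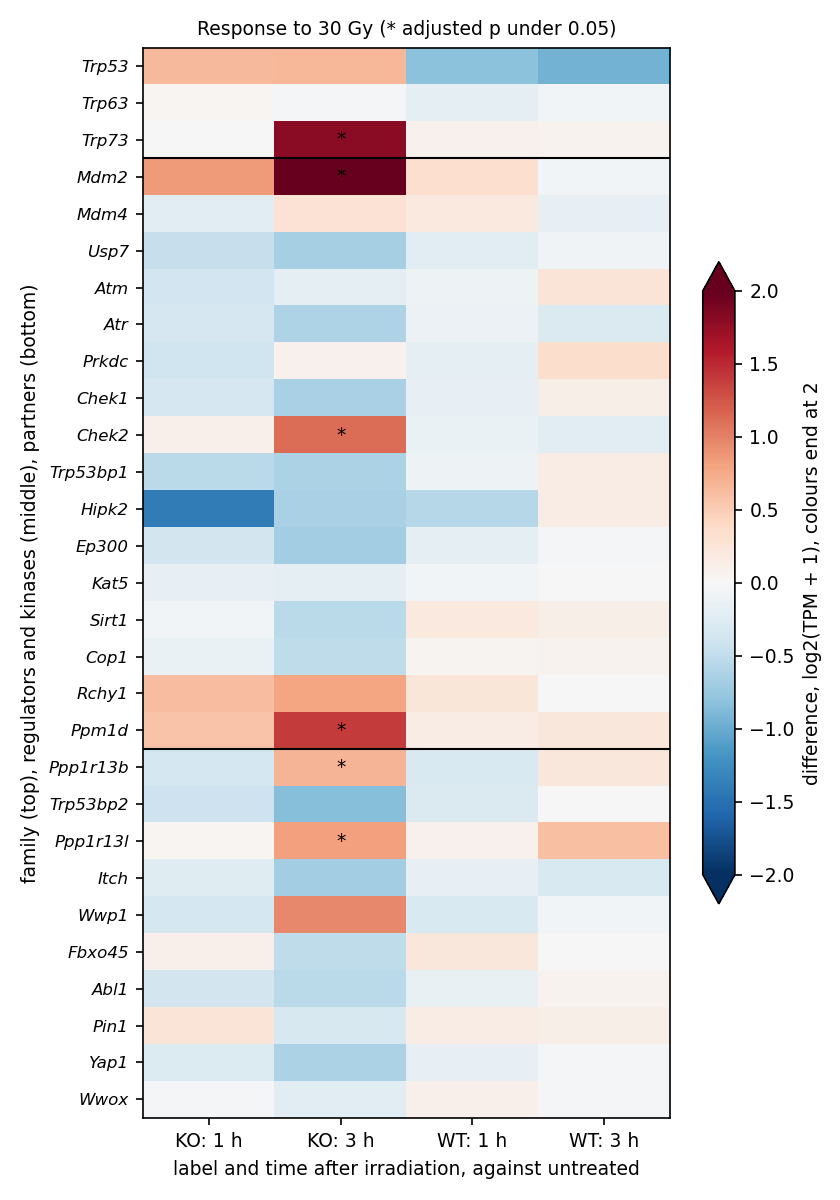
Difference from untreated on the log2(TPM + 1) scale for the 3 family members, 16 regulators and kinases and 10 partners, in libraries labelled knockout (KO) and wild type (WT) at 1 h and 3 h after irradiation, with an asterisk where the adjusted p of limma is under 0.05. Asterisks stand only in the 3 h column of the label knockout, at Trp73, Mdm2, Chek2, Ppm1d, Ppp1r13b and Ppp1r13l, and colours end at 2 on the log2 scale. Trp73 passed the filter on low values only through the 3 h libraries labelled knockout, so its asterisk is a description.

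Genes whose pattern over the 12 libraries was most like that of a member were taken by Pearson's r on log2(TPM + 1), as a description without a test, since libraries share labels, times and numbers. For Trp53 they were Mecr (r = 0.83), Trp53-ps (0.82), Mall (0.80), Tdgf1 (0.80) and Ccnf (0.75), and the most opposite were Krba1 (-0.86), Shmt1 (-0.85) and Zfp827 (-0.84). With ranks in place of values 3 of the first 5 were kept. For Trp63 they were Bhlha9 (0.88), Zfp40 (0.88), Tcaim (0.87), Ackr3 (0.87) and Adamts15 (0.87), the most opposite were Ndufa4l2 (-0.85), Lrp8os2 (-0.84) and Mecr (-0.82), and 1 of the first 5 was kept with ranks. For Trp73 they were Rhbdl2 (0.99), B3gnt4 (0.98), Ces2g (0.98), Arhgef4 (0.98) and Matn1 (0.98), of which 0 were kept with ranks, and the most opposite were Hsf1 (-0.97), Cdca7 (-0.97) and Rcor2 (-0.96). Trp73 passes 1 TPM only in the 3 h libraries labelled knockout, so the likeness rests on 2 libraries. Rhbdl2, B3gnt4, Ces2g and Matn1 also passed 1 TPM only there. They thus passed the filter on low values only through the same libraries as Trp73, which made a high r likely in advance. Arhgef4 did not depend on them to pass, at 16.3 and 13.1 TPM there against 1.07 to 2.20 TPM in the other 10.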

How the data were processed

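Per the labels, about 500 ng of RNA from each embryo sample gave polyA-selected libraries read in pairs of 75 bp. The authors deposited TPM per gene ID. Tools listed in the submitters' processing notes, with no role given, are RSEM 1.3.3, STAR 2.7.3a, DESeq2 1.42.1, HTSeq 0.12.3 and R 4.3.3, and the build is GRCm39. The sources used here do not give the annotation release or the strand setting, and TPM keeps no depth.

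Symbols were taken by gene ID and matched 97.1% of IDs. Genes that reached 1 TPM in 2 or more libraries were tested on log2(TPM + 1) with limma 3.58.1, 1 mean per group over all 12 libraries, 6 residual degrees of freedom, trended spread, two-sided, with Benjamini-Hochberg adjustment over all 15535 genes and calls at an adjusted p under 0.05. The code was tested on simulated data. Labels were also permuted exactly within times. The members and the 15 gene lists were chosen with earlier results of these data known. Besides the members, the genes named are the 3 of each described list with the smallest p at 3 h (knockout label against untreated or against wild-type label), the most abundant of each cell type list, the neighbours, and the 5 genes most like and 3 most unlike each member; further names were chosen after their values were seen. Alternatives were another pseudocount, filters, scaling, fewer groups, no trend, the replicate block and left-out libraries. The numbers 1 and 2 come from the labels, and libraries of equal number deviated together (r from 0.327 to 0.796 over 15 pairs of groups). The main fit and the main permutation nevertheless ignored the numbers. Pairing by number was used only for the ratios within pairs, the exchanges within pairs and the replicate block. That block called more genes in the 3 h comparisons. Libraries of a group correlated across genes at 0.935 to 0.974, and none was counted as a copy. 1 gene of the p63 target list is counted but not reported here by name.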

Additional observations from a re-analysis of the deposited data

Results flagged for a closer look

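Trp53 at 79.1 TPM in the untreated library 2 labelled knockout lay far below the other 5 libraries of that label, which held 209.5 to 265 TPM. The gap was 0.701 of the range, above the 95% critical value of Dixon's test for 6 values. Trp53 at 211 TPM in the untreated library 2 labelled wild type lay far above the other 5 of its label, which held 66.8 to 114 TPM. That gap was 0.671 of the range on the TPM scale and 0.535 on the log2(TPM + 1) scale, where it did not pass. The 6 libraries of a label span 3 times, and chance alone marks about 1 group in 20.

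The 3 h response of Trp73 differed between the labels by 1.73 on the log2(TPM + 1) scale (limma interaction, adjusted p = 0.0273, and 0.0182 with the replicate block). It was higher in both 3 h libraries labelled knockout than in any other library, and it passed the filter on low values only through those 2 libraries, so these p-values are a description. With no filter the adjusted p was 0.0198 (limma), and the range of the adjusted p over the other settings that kept all libraries ran up to 0.170 with a pseudocount of 0.1.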

How the results depend on the processing

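All differences here are on the log2(TPM + 1) scale unless named otherwise, and the cause of a change was not tested. Depth is unknown, so no detection limit can be given for Trp73 in the 10 libraries at 0.340 TPM or less. With the replicate block, Trp63 over the mean of the times passed (-0.27, limma adjusted p = 0.0487). The block changed no other call of a member, while it moved the count of all genes called from the 1603 of the 3 h label comparison to 4371, and from the 1883 of 3 h against untreated under the label knockout to 4534. For the 3 h response difference of Trp73, a pseudocount of 0.1 gave 3.63 (limma adjusted p = 0.170), only the groups compared gave 1.73 (limma adjusted p = 0.0519), leaving out both 1 h libraries numbered 2 gave 1.73 (limma adjusted p = 0.0536), and leaving out both untreated libraries numbered 2 gave 2.00 (limma adjusted p = 0.150). With only the groups compared, Trp73 at 3 h against untreated under the label knockout was 1.81 (limma adjusted p = 0.0501) and Trp53 between the labels at 3 h was 1.52 (limma adjusted p = 0.0414). Size factors turned Trp63 at 3 h under the label knockout to 0.056.

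Without both 1 h libraries numbered 2, Trp73 turned to 0.013 between the labels at 1 h, to -0.031 and -0.073 at 1 h against untreated under the labels knockout and wild type, and to 0.043 for the 1 h response difference. Without both untreated libraries numbered 2, Trp53 between the labels was 1.21 untreated and 1.37 over the mean of the times, and stayed at 1.52 at 3 h. Against untreated under the label knockout Trp53 was then -0.21 at 1 h and -0.20 at 3 h. In that setting Trp63 turned to 0.040 at 3 h under the label knockout, and Trp73 to -0.032 at 1 h and -0.038 at 3 h under the label wild type and to 0.20 for the 1 h response difference. The exact permutation of Trp53, two-sided, had p = 0.0741 on the log2 scale, 0.0648 with size factors and 0.156 with labels exchanged within pairs, and gave 99.7 TPM (p = 0.0463) on the TPM scale.

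Leaving out 1 library at a time, Trp53 ran from -0.96 to 0.77 between the labels untreated, from 1.29 to 1.75 between the labels at 3 h, and under the label knockout from -0.21 to 1.52 at 1 h and from -0.20 to 1.53 at 3 h. Trp63 ran from -0.036 to 0.12 at 1 h and from -0.12 to 0.040 at 3 h under the label knockout, from -0.16 to 0.065 at 3 h under the label wild type, and from -0.10 to 0.12 for the 3 h response difference. Trp73 ran from -0.18 to 0.13 between the labels untreated, from -0.26 to 0.05 between them at 1 h, from -0.15 to 0.16 at 1 h under the label knockout, from -0.073 to 0.24 at 1 h and from -0.038 to 0.19 at 3 h under the label wild type, from -0.23 to 0.081 for the 1 h response difference and from 1.58 to 1.89 for the 3 h one. Trp73 got no value without either 3 h library labelled knockout, the removals that bear most on its 3 h calls, or with a filter on 6 libraries, so these ranges say nothing of the stability of those calls.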

Other observations

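Of the 66 genes whose RefSeq promoter windows held a p53 site by the rule used for Trp73, 30 were tested. At 3 h against untreated in the libraries labelled knockout 10 of the 30 were called higher and 0 lower, beside 6.25% and 5.87% of all tested genes. The rule was written after the internal Trp73 window had been read, and Trp73 is 1 of the 10.

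Aen, an exonuclease gene induced by p53, ranked second to Trp53-ps in likeness to Trp53 by ranks over the 12 libraries. By Pearson's r, the measure used above, Aen was only at place 33 (r = 0.65). It was at 77.5 TPM in the untreated library labelled knockout with 265 TPM of Trp53, at 52.7 TPM in the one with 79.1 TPM, while untreated wild-type-labelled libraries with 114 and 211 TPM of Trp53 held 58.6 and 59.7 TPM. Aen was named after its values were seen.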
